A study of Rattus norvegicus with 210 samples.

Results

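The mediobasal hypothalamus (MBH) was compared with the preoptic area (POA) of adult female rats that had received vehicle only. The members were the 10 libraries labelled vehicle at postnatal day (PND) 90, 5 of the MBH and 5 of the POA, out of 210 libraries in the series. All of these rats were female Sprague-Dawley offspring of dams gavaged with corn oil, the vehicle, from gestational day 7 to birth and then up to PND22, and no compound was added for either group. The other libraries came from rats exposed through their dams to ketoconazole, a steroid synthesis inhibitor, or to diethylstilbestrol, a synthetic estrogen, or were taken at PND22 and PND42. Both regions were cut from the brain along landmarks of its ventral surface, so each library holds RNA of every cell in a piece of tissue, and fewer cells of a type and less RNA per cell cannot be told apart. The study names diestrus for the hypothalamic explants of its adult rats; whether the rats sequenced were at that stage, and their litters, are not given in the sources used here. Whether the MBH and POA libraries were prepared and sequenced together is not given either, so region and any such batch cannot be told apart.

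The MBH holds the arcuate, ventromedial and dorsomedial nuclei, whose peptide neurons regulate feeding, growth, pituitary hormones and the pulses of gonadotropin-releasing hormone (GnRH). The mammillary bodies lie at its caudal margin. The POA lies in front of it, at the border with the telencephalon, and holds the cell bodies of most GnRH neurons together with steroid-sensitive neurons that time the preovulatory surge and control maternal and sexual behavior. Cholinergic neurons of the basal forebrain lie beside it.

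Counts of reads per gene were deposited for each library. The 5 MBH libraries held between 16919455 and 22416287 counted reads (median 18271370), and the 5 POA libraries between 16856857 and 20687509 (median 20001209). Levels are given below as CPM, the count of a gene divided by the total of its library and multiplied by 1000000. CPM does not correct for gene length, so levels are compared between libraries and not between genes. Replicates 1 to 5 are named by the number in their labels, and values of 5 libraries are listed in that order. The log2 difference is MBH minus POA throughout, so a positive value is a higher level in the MBH. Some genes that passed the test below are given with only a pair of values, such as -1.3 ± 0.15 for the melanocortin receptor Mc4r, which is the log2 difference ± its SE.

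The labelled regions were checked with Lmx1a and Lhx8, which are also among the largest differences named below. They mark tissue at the border of each region and not its own nuclei, whose marker lists are given below. Lmx1a, a factor of mammillary neurons, had 7.45 to 18.6 CPM in the MBH and 0.237 to 0.70 CPM in the POA. Lhx8, a factor of basal forebrain neurons, had 4.24 to 41.6 CPM in the POA and 0.223 to 0.508 CPM in the MBH. A principal component analysis of log2 CPM separated the regions on its first component, which held 47.8% of the variance. The second component, with 15.3%, set POA replicate 3 apart (score 44.2, against a highest score of 9.55 among the other 9 libraries). Correlations of log2 CPM between libraries, which describe these libraries across genes, ran from 0.9871 to 0.9896 within the MBH, from 0.9732 to 0.9887 within the POA and from 0.9572 to 0.9707 between the regions.

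Several libraries stood apart within their region. POA replicate 3 had the highest level in the POA of Chat, the enzyme that makes acetylcholine (55.2 CPM), of the cortical and thalamic glutamate transporter Slc17a7 (40.9 CPM, against 0.967 to 3.65 in the other 4) and of Prkcd (102 CPM, against 15.5 to 49.1), and the lowest of oxytocin (90.6 CPM) and vasopressin (11.5 CPM). POA replicate 2 had the lowest Chat (2.17 CPM) and the highest Pmch, which encodes melanin-concentrating hormone (141 CPM, against 1.64 to 3.90). MBH replicates 1, 4 and 5 had high levels of the dopamine transporter Slc6a3 (133, 62.8 and 99.1 CPM, against 6.76 and 5.41 in replicates 2 and 3). Values without POA replicates 2 and 3, or without these 3 MBH libraries, are given where a result below rests on them.

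Of 14687 genes tested, 3963 (27%) differed between the regions at an adjusted p under 0.05 (edgeR quasi-likelihood test, two-sided, Benjamini-Hochberg adjustment). The direction was even, with 1990 genes (13.5%) higher in the MBH and 1973 (13.4%) higher in the POA. Large differences were fewer and lay mostly on the side of the MBH: 700 of the genes that passed differed at least 2-fold, 478 of them higher in the MBH, 160 at least 4-fold (120) and 52 at least 8-fold (39). The median absolute log2 difference of the genes that passed was 0.46, and the median log2 difference of all genes tested was -0.02. In 2748 genes (18.7%) the 5 MBH values lay entirely above or below the 5 POA values, 1730 above (11.8%) and 1018 below (6.93%). Libraries of the POA varied more among themselves: the median SD of log2 CPM was 0.142 in the MBH and 0.183 in the POA, and 9757 of the 14687 genes had the larger SD in the POA. Without POA replicates 2 and 3, a choice made after seeing the data, 2190 genes were higher in the MBH and 2078 in the POA.

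**Figure D1:**
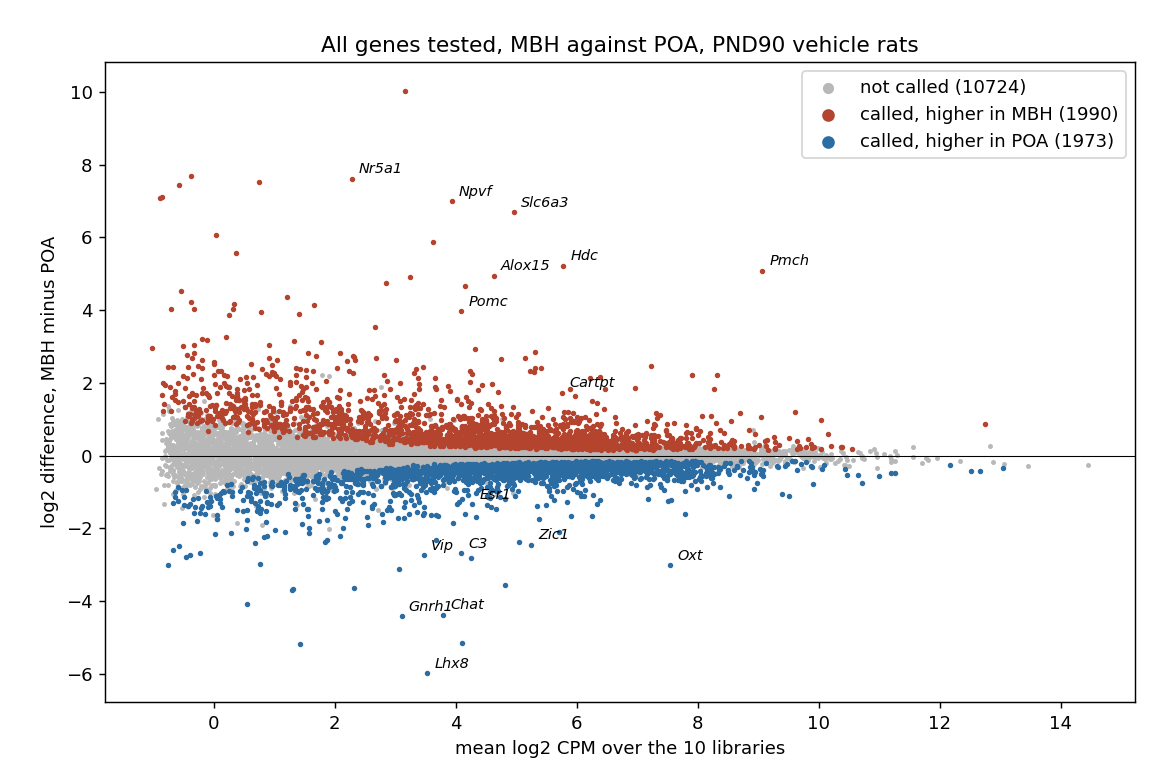
Each point is 1 of the 14687 genes tested, with its mean log2 CPM over the 10 libraries on the horizontal axis and its log2 difference (MBH minus POA) on the vertical axis. Colored points are the 1990 genes higher in the MBH and the 1973 higher in the POA; the named genes at the upper edge, such as Nr5a1 and Npvf, reach further from 0 than those at the lower edge.

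The 12 largest differences in each direction, among called genes whose average log2 CPM was 1 or more and whose ranges did not overlap, were mostly transcription factors and enzymes or peptides of particular hypothalamic and basal forebrain neurons. Among those higher in the MBH were the transcription factors Nr5a1 and Lmx1a, the peptide precursors Npvf, Pmch, Hcrt and Pomc, the histamine enzyme Hdc, the dopamine transporter Slc6a3, and Alox15, Fndc3c1 and Slc4a1. Among those higher in the POA were the transcription factors Lhx8, Gbx1, Tbr1, Lhx6, Zic1 and Zic4, the peptide precursors Gnrh1 and Vip, the cholinergic enzyme Chat and the complement component C3. They were chosen by these differences, which are therefore a description of the extremes.

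**Figure D2:**
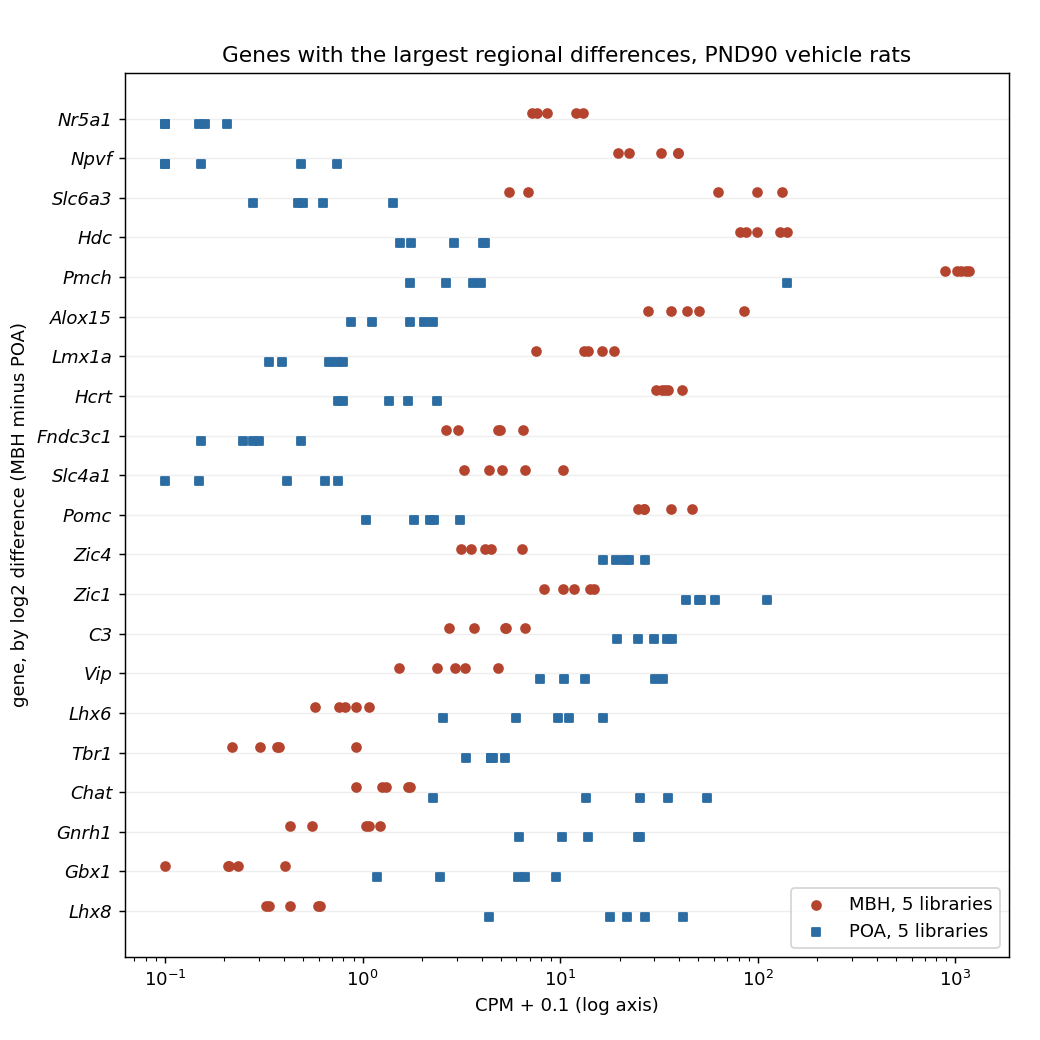
Levels of 21 genes named for the size of their differences, as CPM + 0.1 on a log axis, with 1 round point for each MBH library and 1 square for each POA library. No gene has overlapping regions, by the rule that chose it; POA replicate 2 lies far above the other POA libraries for Pmch and below them for Chat.

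Promoter sequences were looked up for the 21 genes plotted in RefSeq (assembly GRCr8), where 16 were matched by symbol. The letters TATAAA, the core of a TATA box, were searched on both strands of the 250 bases before the start of each gene, and were found in 4 of the 16, all of them genes of secreted peptides, against 12.9% of all 33469 promoters of that length. The homeodomain core TAATTA was found in 3 of 16 (Fndc3c1, Npvf and Tbr1), against 4.86% of all promoters, and overlaps none of the TATAAA letters printed here. CAAGGTCA, the response element of the ventromedial factor Nr5a1, was found in none of the 16 and in 1.33% of all promoters. A match describes the letters only. The 4 peptide promoters with a TATAAA are shown because these genes carry the peptide differences below; capitals mark TATAAA and TAATTA, and each runs 5′ to 3′ on the strand of its gene.
Npvf (chr4:81047046-81047295, minus strand): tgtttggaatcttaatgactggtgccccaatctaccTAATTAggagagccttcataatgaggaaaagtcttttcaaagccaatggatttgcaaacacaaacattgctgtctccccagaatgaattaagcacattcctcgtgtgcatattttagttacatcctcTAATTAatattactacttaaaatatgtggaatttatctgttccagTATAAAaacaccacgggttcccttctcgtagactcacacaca
Hcrt (chr10:86191525-86191774, minus strand): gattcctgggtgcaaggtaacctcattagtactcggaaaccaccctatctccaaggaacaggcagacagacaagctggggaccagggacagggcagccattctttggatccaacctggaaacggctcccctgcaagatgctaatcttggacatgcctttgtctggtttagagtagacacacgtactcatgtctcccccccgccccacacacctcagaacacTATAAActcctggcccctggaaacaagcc
Pomc (chr6:32659103-32659352, plus strand): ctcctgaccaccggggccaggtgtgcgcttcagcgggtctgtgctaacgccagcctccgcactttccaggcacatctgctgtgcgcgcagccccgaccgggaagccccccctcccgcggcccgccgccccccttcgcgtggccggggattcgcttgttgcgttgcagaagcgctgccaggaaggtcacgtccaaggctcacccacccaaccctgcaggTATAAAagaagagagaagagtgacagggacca
Vip (chr1:44470230-44470479, plus strand): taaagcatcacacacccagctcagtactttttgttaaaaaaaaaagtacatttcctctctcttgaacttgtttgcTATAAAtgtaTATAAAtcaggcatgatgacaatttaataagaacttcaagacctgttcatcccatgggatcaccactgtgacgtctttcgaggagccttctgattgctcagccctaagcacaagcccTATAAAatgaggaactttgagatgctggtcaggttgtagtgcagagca
In Hcrt the TATAAA began 29 bases before the start of the gene, in Pomc 32 and in Npvf 42 bases before it. Vip held 3 copies, at 175, 165 and 48 bases, and Npvf held 2 copies of TAATTA, at 214 and 87 bases. Npvf, Hcrt and Pomc were higher in the MBH and Vip in the POA, so the shared letters were found in genes of both directions.

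Every mammillary marker tested was higher in the MBH. All 7 that passed the filter, of 8 listed, passed the test in that direction, against 13.5% of all genes tested, with a median log2 difference of 4.76 beside -0.02 for all genes tested. Lmx1b and Nkx2-4 had no read in any POA library and were at least 37.2-fold and at least 43.0-fold higher in the MBH, against a floor of 3 counts over the group. Lmx1a, a LIM homeodomain factor, had 18.6, 13.2, 7.45, 16.1 and 13.8 CPM in the MBH and 0.29, 0.641, 0.237, 0.70 and 0.579 CPM in the POA (log2 difference 4.76, SE 0.31, adjusted p = 6.01e-07). Foxb1, a forkhead factor of mammillary neurons, had 10.3, 13, 13.3, 11 and 10.9 CPM in the MBH and 2.37, 3.21, 1.6, 2.05 and 4.42 CPM in the POA (log2 difference 2.06, SE 0.23, adjusted p = 3.94e-05), the smallest difference in the list. Barhl1 (1.36 to 3.35 CPM against 0 to 0.242 CPM) and Foxa1 (0.559 to 2.01 against 0 to 0.20 CPM) also passed.

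Markers of the lateral and posterior tuberal hypothalamus were higher in the MBH in 6 of the 9 tested, against 13.5% of all genes tested. Pmch had 1166, 888, 1016, 1137 and 1069 CPM in the MBH and 1.64, 141, 2.55, 3.5 and 3.9 CPM in the POA (log2 difference 5.08, SE 1.05, adjusted p = 0.00336). The POA level came almost wholly from replicate 2, and without that library the log2 difference was 8.47; with the rat number as a block it was 7.37. Hcrt, which encodes the orexins that keep animals awake, had 32.5, 35.1, 41, 30.3 and 33.8 CPM in the MBH and 1.6, 2.27, 0.653, 0.70 and 1.26 CPM in the POA (log2 difference 4.68, SE 0.23, adjusted p = 6.11e-08). Both peptides are made in the lateral hypothalamus, and no POA library reached the MBH range of either. Hdc, the histidine decarboxylase of the tuberomammillary nucleus, had 81.6, 129.7, 140.0, 87.1 and 98.8 CPM in the MBH and 3.96, 2.81, 1.66, 1.45 and 4.05 CPM in the POA (log2 difference 5.22, SE 0.26, adjusted p = 6.11e-08). Npvf, the precursor of the RFamide peptides that inhibit gonadotropin release, had 22.2, 39.2, 39.3, 32.4 and 19.6 CPM in the MBH and 0.387, 0.641, 0, 0 and 0.0526 CPM in the POA (log2 difference 7.0, SE 0.45, adjusted p = 6.01e-07). For both genes every MBH library lay far above every POA library. Npw, which encodes neuropeptide W, had 303 reads in the MBH and 1 in the POA, a ratio of 308 with a counting interval of 54.8 to 12180. The synaptic pentraxin Nptx2 was higher in the MBH (log2 difference 1.64, SE 0.08, adjusted p = 6.11e-08), with 90.5 to 105 CPM against 26.7 to 36.6 CPM. The LIM factor Lhx9 was the member higher in the POA (0.458 to 1.83 CPM in the MBH, 1.74 to 3.7 CPM in the POA, log2 difference -1.35, SE 0.35, adjusted p = 0.0129), with overlapping ranges. Trh, the precursor of thyrotropin-releasing hormone, did not pass the test: it had 69, 125, 142, 91.9 and 108 CPM in the MBH and 172, 279, 66, 98.6 and 123 CPM in the POA (log2 difference -0.5, SE 0.31, adjusted p = 0.255). Its ranges overlapped, and without replicate 3 of both regions it passed at an adjusted p of 0.0454, higher in the POA.

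In the list of arcuate and other tuberal neurons, 13 of 20 members tested were higher in the MBH and 3 higher in the POA (13.5% and 13.4% of all genes tested). Pomc, the precursor of melanocortins and β-endorphin, had 26.3, 36.4, 46.6, 24.6 and 26.5 CPM in the MBH and 3.0, 0.937, 1.72, 2.1 and 2.21 CPM in the POA (log2 difference 3.96, SE 0.26, adjusted p = 6.01e-07). Agrp, the melanocortin antagonist that drives feeding, had 12, 14.2, 13.1, 9.1 and 9.85 CPM in the MBH and 0.387, 1.43, 0.297, 1.15 and 1.58 CPM in the POA (log2 difference 3.53, SE 0.33, adjusted p = 1.17e-05). The regions were far apart in both genes of this feeding circuit. Cartpt, which encodes the peptide CART, had 67, 93.6, 88.1, 88.3 and 83.3 CPM in the MBH and 24.3, 41.1, 13.6, 20.7 and 23.8 CPM in the POA (log2 difference 1.73, SE 0.21, adjusted p = 8.83e-05). Ghrh, the growth hormone-releasing hormone, had 2.63, 4.78, 4.14, 4.02 and 4.27 CPM in the MBH and 1.4, 2.12, 1.07, 0.30 and 1.11 CPM in the POA (log2 difference 1.68, SE 0.34, adjusted p = 0.00295). Neither had overlapping ranges, and every POA library held reads of both. Nr5a1, the steroidogenic factor that marks the ventromedial nucleus, had 7.49, 12.9, 12, 8.45 and 7.11 CPM in the MBH and 4 of 5 POA libraries had at most 0.0593 CPM, with 0.105 CPM in replicate 5 (log2 difference 7.61, SE 0.4, adjusted p = 9.71e-08). Its partner Nr0b1 (2.52 ± 0.34), Fezf1 (1.6 ± 0.29), the arcuate factor Tbx3 (2.59 ± 0.23) and Sox14 (2.19 ± 0.35) were higher in the MBH with ranges that did not overlap, as in 11.8% of all genes tested. Galp, a galanin-like peptide of the arcuate nucleus, had 175 reads in the MBH and 2 in the POA, a ratio of 88.8 with a counting interval of 24.2 to 739. Rax, a homeodomain factor of tanycytes, had 63 reads against 1 (ratio 63.9, interval 11.1 to 2565). Npy had no read in any of the 10 libraries and 1 read in all 210, although neuropeptide Y neurons are abundant in the arcuate nucleus, so its 0 counts were not read as a level. Qrfp likewise had 0 reads in all 210 libraries.

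The dopaminergic genes Slc6a3 and Th were higher in the MBH but unequal among its libraries. Slc6a3 had 133, 6.76, 5.41, 62.8 and 99.1 CPM in the MBH and 0.532, 1.33, 0.178, 0.40 and 0.368 CPM in the POA (log2 difference 6.7, SE 1.01, adjusted p = 0.000419). Th, the tyrosine hydroxylase that limits dopamine synthesis, had 111, 32.4, 30.2, 65.7 and 87.2 CPM in the MBH and 13.6, 18.9, 6.82, 7.95 and 17.5 CPM in the POA (log2 difference 2.3, SE 0.39, adjusted p = 0.000901). The same 3 MBH libraries, replicates 1, 4 and 5, were high for both genes. Chrna6 and Chrnb3, nicotinic receptor subunits of dopamine neurons, followed the same libraries. Chrna6 had 10.04, 2.39, 1.88, 7.51 and 8.05 CPM in the MBH and 0.387, 1.13, 0.0593, 1.2 and 0.526 CPM in the POA (log2 difference 3.11, SE 0.57, adjusted p = 0.00153). Chrnb3 had 7.76, 1.17, 1.54, 6.8 and 5.47 CPM in the MBH and 0.532, 0.148, 3.5, 0.75 and 0.263 CPM in the POA (log2 difference 2.15, SE 0.71, adjusted p = 0.0397), so POA replicate 3 lay above MBH replicates 2 and 3. Slc18a2, the vesicular monoamine transporter, was even across the MBH at 77.8, 60.4, 83.1, 61.1 and 67.8 CPM, against 9.62, 15.5, 8.84, 5.25 and 8.11 CPM in the POA (log2 difference 2.85, SE 0.21, adjusted p = 1.97e-06). Ret, a growth factor receptor that dopamine neurons also make, was higher in the MBH (0.95 ± 0.18). Ddc, the enzyme that converts L-DOPA to dopamine, had 57.9, 29.7, 34.6, 44.4 and 44.3 CPM in the MBH and 47.6, 48.4, 17.4, 28.1 and 27.5 CPM in the POA and did not pass (log2 difference 0.29, SE 0.25, adjusted p = 0.424), nor did Aldh1a1 (log2 difference 0.56, SE 0.34, adjusted p = 0.234); the ranges of both overlapped. These genes other than Slc6a3 and Th were named after their values were seen. Of 10 listed midbrain markers only Gata2 and Tal1 passed the filter, and neither differed at the threshold. With DESeq2, which was run without that filter, 4 of the 10 were higher in the MBH. So were 2365 of all genes in that fit, whose share is not given here, so the count of 4 has no share to be set against. The 4 were En1 (log2 difference 2.22, SE 0.85, adjusted p = 0.0375), En2 (log2 difference 3.99, SE 1.09, adjusted p = 0.00201), Pax7 (log2 difference 3.59, SE 1.36, adjusted p = 0.0348) and Foxa2, which had no read in the POA (adjusted p = 0.000102). They rested on few reads: 54 in the MBH and 11 in the POA for En1, 50 and 3 for En2, 17 and 1 for Pax7, and 53 and 0 for Foxa2. Foxa2 was also listed as a mammillary marker. In the main fit 13.5% of all genes tested were higher in the MBH. The midbrain factor En1 was at 1.29, 0.102, 0.165, 0.118 and 0.985 CPM in the MBH and Foxa2 at 1.43, 0.102, 0.0552, 0.414 and 0.602 CPM, so both were highest in replicate 1 and next in replicate 5. Foxa2 was higher in replicates 1, 4 and 5, the libraries with high Slc6a3, than in 2 and 3, whereas En1 was low in replicate 4. The summed midbrain list had 12.7, 9.1, 6.79, 10.8 and 11.1 CPM in the MBH and 6.82, 5.18, 6.53, 5.85 and 9.05 CPM in the POA, with Gata2 its most abundant gene. The serotonin transporter Slc6a4 was at most 0.61 CPM in any MBH library, and the part of midbrain tissue in the dopaminergic values was not tested. With MBH replicates 2 and 3 alone the lowest Slc6a3 value, 5.41 CPM, was still above the highest POA value, 1.33 CPM. Without MBH replicates 1, 4 and 5, a fit chosen after seeing the data, Slc6a3 (log2 difference 3.36, SE 0.49, adjusted p = 0.0045) and Slc18a2 (log2 difference 2.88, SE 0.29, adjusted p = 0.000739) still passed, whereas Th (log2 difference 1.23, SE 0.34, adjusted p = 0.0588), Ret (log2 difference 0.69, SE 0.23, adjusted p = 0.0934), Chrna6 (log2 difference 1.63, SE 0.63, adjusted p = 0.144) and Chrnb3 (log2 difference 0.38, SE 0.94, adjusted p = 0.837) did not.

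Genes of the reproductive axis differed between the regions in 21 of the 24 tested, 14 higher in the POA and 7 in the MBH, where 27% of all genes tested differed. Gnrh1, the precursor of GnRH, had 24.6, 6.12, 10.1, 13.7 and 25.2 CPM in the POA and 0.981, 0.458, 0.938, 1.12 and 0.328 CPM in the MBH (log2 difference -4.41, SE 0.45, adjusted p = 1.99e-05). Replicates 1 and 5 of the POA were highest and replicate 2 lowest, and all were above the MBH. The kisspeptin gene Kiss1, whose product is the main activator of GnRH neurons, had 1.47, 1.78, 0.993, 1.95 and 0.711 CPM in the MBH and 11, 3.6, 1.84, 2.9 and 1.84 CPM in the POA (log2 difference -1.65, SE 0.48, adjusted p = 0.0231). The ranges overlapped, and POA replicate 1 was far above the other POA libraries. Without it the log2 difference was -0.90 (adjusted p = 0.0537). Tac3, which encodes the neurokinin B made by arcuate kisspeptin neurons, was also lower in the MBH, with 14.3, 19, 21.5, 12.5 and 16 CPM against 46.1, 28.8, 24.2, 31.1 and 49.4 CPM in the POA (log2 difference -1.15, SE 0.21, adjusted p = 0.00143). Pdyn, the dynorphin precursor of the same arcuate neurons and of many others, went the opposite way, with 95.2, 157, 135, 132 and 108 CPM in the MBH and 60.2, 70.6, 30.8, 45.3 and 44.7 CPM in the POA (log2 difference 1.28, SE 0.19, adjusted p = 0.000349). Tacr3, the neurokinin B receptor, was higher in the MBH (0.78 ± 0.18) and Oprk1, the dynorphin receptor, in the POA (-0.59 ± 0.1), while the kisspeptin receptor Kiss1r did not pass (log2 difference -0.35, SE 0.16, adjusted p = 0.123). Of the 3 kisspeptin, neurokinin B and dynorphin genes, therefore, Pdyn alone was higher in the MBH.

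**Figure D3:**
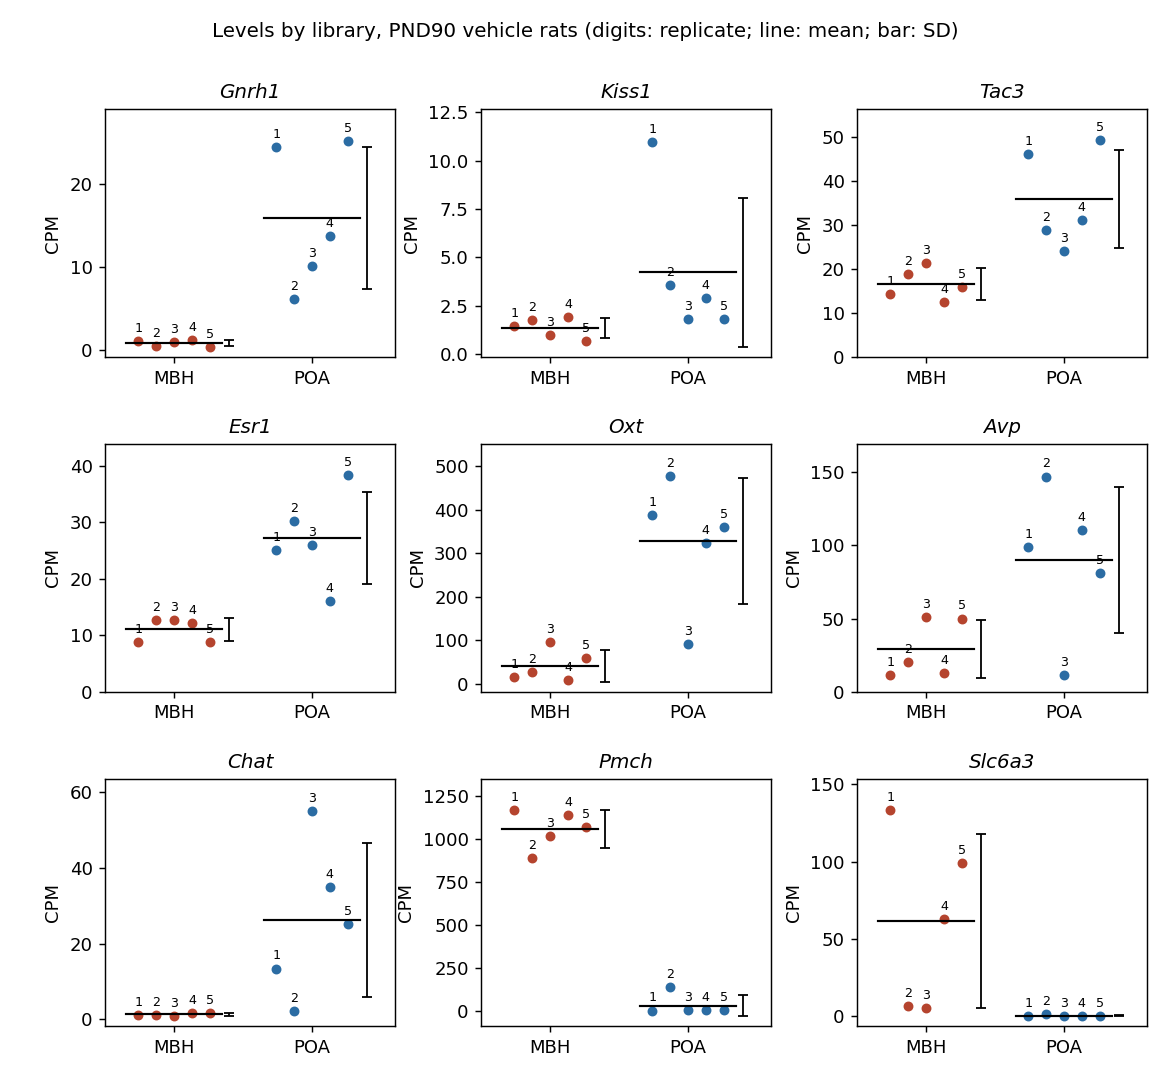
Levels of 9 genes in CPM, on linear axes, in each MBH and POA library at PND90, with the replicate number beside each point; lines are means and bars SD of 5 libraries. Gnrh1, Tac3 and Esr1 separate the regions, Kiss1 and Avp overlap, POA replicate 3 is lowest for Oxt and Avp and highest for Chat, and Slc6a3 is split within the MBH.

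Estrogen and progesterone receptors and aromatase were higher in the POA. Esr1, estrogen receptor α, had 8.83, 12.7, 12.7, 12.1 and 8.87 CPM in the MBH and 25.1, 30.2, 26, 16 and 38.4 CPM in the POA (log2 difference -1.34, SE 0.2, adjusted p = 0.000407). Its ranges did not overlap. The progesterone receptor Pgr had 8.97, 9.25, 9.38, 9.93 and 9.14 CPM in the MBH and 20.8, 18.5, 17.8, 15.6 and 9.26 CPM in the POA (log2 difference -0.84, SE 0.16, adjusted p = 0.00228), and POA replicate 5 lay inside the MBH range. Esr2, estrogen receptor β, had 0.58, 1.42, 0.993, 1.83 and 1.09 CPM in the MBH and 1.6, 3.6, 2.31, 2.1 and 2.63 CPM in the POA (log2 difference -1.1, SE 0.3, adjusted p = 0.0159), with overlap, and it missed the threshold without POA replicates 2 and 3 together (adjusted p = 0.0589). Cyp19a1, the aromatase that makes estradiol from testosterone, had 1.29, 1.32, 1.65, 0.65 and 0.766 CPM in the MBH and 5.66, 5.52, 1.48, 4.45 and 5.32 CPM in the POA (log2 difference -2.01, SE 0.35, adjusted p = 0.00112). The low POA value was that of replicate 3; the other 4 were all above the MBH. The prolactin receptor Prlr was lower in the MBH, at 1.74, 1.83, 2.26, 2.07 and 2.85 CPM against 6.09, 5.67, 5.28, 3.45 and 3.63 CPM (log2 difference -1.2, SE 0.21, adjusted p = 0.00108). Greb1, an estrogen-induced gene, was higher in the POA (-0.73 ± 0.18), as were the relaxin-3 receptor Rxfp3 (-1.06 ± 0.19) and the nitric oxide synthase Nos1 (-0.31 ± 0.1). Gpr50 (1.99 ± 0.18), the GABA-A subunit gene Gabre (0.57 ± 0.14), Tac1 (0.53 ± 0.13) and the leptin receptor Lepr (0.98 ± 0.34) were higher in the MBH. The receptor of the Npvf peptides, Npffr1, did not pass (log2 difference -0.11, SE 0.28, adjusted p = 0.792).

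Across the wider list of steroid and nuclear hormone receptors, 15 of 33 tested members differed, 5 higher in the MBH and 10 in the POA, beside 27% of all genes tested. Beside Nr5a1 and Nr0b1, the MBH had more Nr5a2 (3.85 ± 0.48) and slightly more of the retinoid receptors Rxrb (0.37 ± 0.06) and Rara (0.39 ± 0.1). The POA had more of the mineralocorticoid receptor Nr3c2 (-0.72 ± 0.23), Rxra (-0.47 ± 0.1), Rorb (-0.39 ± 0.1), Ppara (-0.59 ± 0.19) and the clock repressors Nr1d1 (-0.34 ± 0.09) and Nr1d2 (-0.2 ± 0.07). The glucocorticoid receptor Nr3c1 had 90.7 to 109 CPM in the MBH and 87.9 to 104 CPM in the POA and did not pass (adjusted p = 0.974). The thyroid hormone receptors Thra (log2 difference -0.15, SE 0.05, adjusted p = 0.0651) and Thrb (log2 difference -0.27, SE 0.11, adjusted p = 0.0749) missed the threshold.

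Of 15 preoptic markers tested, 7 were higher in the POA and 4 in the MBH (13.4% and 13.5% of all genes tested). Nts, the neurotensin precursor, had 16.2, 18.9, 19, 22.7 and 19.8 CPM in the MBH and 72.8, 36.5, 69.2, 54.8 and 81 CPM in the POA (log2 difference -1.74, SE 0.18, adjusted p = 2.7e-05). Gal, the galanin precursor, had 28.8, 39.4, 44.8, 35 and 30.2 CPM in the MBH and 81.1, 56.1, 36.9, 45.6 and 75.1 CPM in the POA (log2 difference -0.77, SE 0.2, adjusted p = 0.0127). The ranges of Nts were separate, whereas POA replicate 3 lay among the MBH values for Gal, and Gal missed the threshold without replicate 1 of both regions (adjusted p = 0.0832) or without replicate 5 (adjusted p = 0.0835). The calcitonin receptor Calcr (-0.7 ± 0.18), Moxd1 (-1.16 ± 0.19) and Ucn3, which encodes urocortin 3 (-1.81 ± 0.5), were higher in the POA. The growth factor Bdnf (1.23 ± 0.17), Adcyap1, which encodes PACAP (1.04 ± 0.19), Brs3 (0.52 ± 0.17) and Tacr3 were higher in the MBH although they had been listed as preoptic; these genes are used by neurons of many regions.

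Magnocellular, paraventricular and suprachiasmatic genes were higher in the POA in 6 of 10 tested members and in the MBH in 1 (13.4% and 13.5% of all genes tested). Oxt, the oxytocin precursor, had 16.1, 26.5, 96.7, 9.46 and 58.5 CPM in the MBH and 387, 477, 90.6, 323 and 359 CPM in the POA (log2 difference -3.02, SE 0.57, adjusted p = 0.00186). Avp, the vasopressin precursor, had 11.4, 20.4, 51, 12.6 and 50.1 CPM in the MBH and 98.7, 147, 11.5, 111 and 81.2 CPM in the POA (log2 difference -1.66, SE 0.55, adjusted p = 0.0398). POA replicate 3 was the low library for both, within the MBH range, and MBH replicates 3 and 5 were high for both. Without that POA library the Oxt difference was -3.25. With the rat number as a block the Avp call was lost (log2 difference -1.74, adjusted p = 0.105), and it was also lost with DESeq2 (adjusted p = 0.0505). Vip, a peptide of the suprachiasmatic nucleus, had 2.28, 3.2, 1.43, 4.73 and 2.85 CPM in the MBH and 30.1, 32.9, 7.77, 10.3 and 13.3 CPM in the POA (log2 difference -2.75, SE 0.42, adjusted p = 0.000441). Replicates 1 and 2 of the POA were highest, and the ranges did not overlap. Crh, the corticotropin-releasing hormone, had 1.61, 4.32, 5.08, 3.78 and 5.04 CPM in the MBH and 11.6, 9.96, 13.8, 6.9 and 12.4 CPM in the POA (log2 difference -1.51, SE 0.27, adjusted p = 0.00128). Rasd1 (log2 difference -0.92, SE 0.19, adjusted p = 0.00327) and Rorb were higher in the POA, and the factor Lhx1 was higher in the MBH (log2 difference 0.76, SE 0.26, adjusted p = 0.0439). Prok2, another suprachiasmatic peptide, had 58 reads in the POA and 2 in the MBH (ratio 28.6, counting interval 7.56 to 242). Sst, the somatostatin precursor, did not differ at the threshold: it had 58, 59.4, 89.2, 53.1 and 69.6 CPM in the MBH and 85.9, 113, 41.3, 68.1 and 61.2 CPM in the POA (log2 difference -0.2, SE 0.22, adjusted p = 0.524), and its sign turned without POA replicate 2.

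Septal and cholinergic basal forebrain markers were higher in the POA in all 10 members tested, against 13.4% of all genes tested, with a median log2 difference of -2.97. Lhx8, the LIM factor of basal forebrain cholinergic neurons, had 0.223, 0.508, 0.496, 0.236 and 0.328 CPM in the MBH and 17.7, 4.24, 41.6, 26.9 and 21.8 CPM in the POA (log2 difference -5.98, SE 0.58, adjusted p = 1.63e-05). Chat had 1.16, 1.22, 0.827, 1.6 and 1.64 CPM in the MBH and 13.4, 2.17, 55.2, 35 and 25.1 CPM in the POA (log2 difference -4.37, SE 0.66, adjusted p = 0.000419). In both genes POA replicate 3 was highest and replicate 2 lowest, an order also held by the neurotrophin receptor Ngfr (26.7, 5.13, 115, 57.3 and 50.7 CPM in the POA), the vesicular acetylcholine transporter Slc18a3 (6.82, 1.43, 33.3, 17.1 and 14.9 CPM), the choline transporter Slc5a7 (26.2, 8.73, 125, 61.9 and 51 CPM) and the homeobox gene Gbx1 (2.37, 1.09, 9.37, 6.0 and 6.53 CPM). Summed over the list, the POA libraries held 193, 125, 603, 345 and 289 CPM and the MBH libraries 38.8 to 51.2 CPM, with Zic1 the most abundant gene. The ranges of Ngfr, Slc18a3 and Slc5a7 overlapped through POA replicate 2. Without POA replicates 2 and 3 all 10 members still passed, and the Chat difference was -4.29. The zinc-finger factors Zic1 (43.1, 51.6, 111, 60.6 and 50.4 CPM in the POA, -2.45 ± 0.25), Zic2 (-1.67 ± 0.19) and Zic4 (18.9, 21.2, 26.6, 22.1 and 16.4 CPM, -2.34 ± 0.19) did not share the low value of POA replicate 2.

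Markers of other forebrain regions passed in shares near the 27% of all genes tested, with 3 of 10 striatal, 2 of 8 cortical and hippocampal and 4 of 10 thalamic and habenular markers. Of the striatal markers 2 were higher in the MBH and 1 in the POA; the dopamine receptor gene Drd2 (0.4 ± 0.11) and Gpr6 (0.83 ± 0.16) were higher in the MBH. Of the cortical and hippocampal markers, 2 were higher in the POA, among them Tbr1 (log2 difference -3.69, SE 0.35, adjusted p = 1.36e-05), and none in the MBH. Neurod6 and Slc17a7, which mark cortical glutamatergic neurons, had 0.193, 0.345, 5.58, 0.30 and 0.263 CPM and 0.967, 1.83, 40.9, 3.65 and 1.21 CPM in the POA, so within the POA both were high in replicate 3 alone. In the MBH Neurod6 had 3.97, 2.80, 1.82, 5.79 and 2.46 CPM and Slc17a7 had 6.69, 1.32, 1.43, 2.54 and 5.14 CPM. Neither passed (log2 difference 1.36, SE 0.76, adjusted p = 0.206 for Neurod6 and log2 difference -1.49, SE 0.93, adjusted p = 0.257 for Slc17a7). The summed cortical list was 153, 170.4, 287, 184 and 169 CPM in the POA, with Nrgn its most abundant gene. Without POA replicates 2 and 3, 3 members of this list were higher in the MBH and 3 in the POA. Of the thalamic and habenular markers, Cplx1 (-1.1 ± 0.21) and Gbx2 (-2.02 ± 0.42) were higher in the POA and Lef1 (1.11 ± 0.2) and Slitrk6 (0.53 ± 0.13) in the MBH; Prkcd had 39, 10.5, 12.2, 14.4 and 25.8 CPM in the MBH and 20.2, 18.9, 102, 49.1 and 15.5 CPM in the POA (log2 difference -1.02, SE 0.51, adjusted p = 0.159).

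Genes of GABAergic neurons were mostly higher in the POA, and the main glutamate transporter of hypothalamic neurons was higher in the MBH. Of 15 members tested, 9 were higher in the POA and 2 in the MBH (13.4% and 13.5% of all genes tested). Gad1 and Gad2, the enzymes that make GABA, had 533, 577, 939, 597 and 520.5 CPM and 914, 1009, 1304, 863 and 822 CPM in the POA, against 297, 330.1, 407, 346 and 329.5 CPM and 418, 383, 544, 525 and 453 CPM in the MBH (log2 difference -0.92, SE 0.14, adjusted p = 0.000518 for Gad1 and log2 difference -1.12, SE 0.12, adjusted p = 4.25e-05 for Gad2). The vesicular GABA transporter Slc32a1 had 119.5, 94.8, 147, 108 and 135 CPM in the MBH and 197, 185, 316, 231 and 203 CPM in the POA (log2 difference -0.94, SE 0.15, adjusted p = 0.000616). None of these ranges overlapped. The homeobox genes of GABAergic forebrain neurons Dlx1 (-1.35), Dlx2 (-1.6), Dlx5 (-1.26), Dlx6 (-1.7) and Lhx6 (-3.63) had the log2 differences given in parentheses and all passed, with an adjusted p of at most 0.00094. Slc17a6, the vesicular glutamate transporter of hypothalamic neurons, had 403, 342, 373, 416 and 318 CPM in the MBH and 187, 255, 100.4, 173 and 139.9 CPM in the POA (log2 difference 1.08, SE 0.18, adjusted p = 0.000947). Isl1 was higher in the MBH (log2 difference 0.48, SE 0.11, adjusted p = 0.00498).

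Transcription factors that mark forebrain regions went both ways. Of 35 tested, 13 were higher in the POA and 10 in the MBH (13.4% and 13.5% of all genes tested). Beside the Zic genes above, Zic5 (-2.32 ± 0.25) was higher in the POA, as were Six3 (-0.79 ± 0.23), Meis2 (-1.42 ± 0.41) and Emx2 (-0.81 ± 0.26). The MBH had more of Bsx, a factor of Agrp neurons (3.57, 6.3, 5.74, 4.55 and 4.05 CPM against 0.145, 0.247, 0.89, 0.25 and 0.105 CPM, 3.88 ± 0.4), Otx1 (2.62 ± 0.39), the Iroquois factors Irx3 (1.84 ± 0.29) and Irx5 (1.54 ± 0.29), Barhl2 (1.53 ± 0.28), Foxd1 (1.42 ± 0.21) and Nkx2-2 (0.86 ± 0.21). Nkx2-1, which patterns the ventral hypothalamus and the adjoining basal forebrain, was found in both regions, with 16.5, 23.7, 23.9, 24.1 and 15.9 CPM in the MBH and 9.76, 5.18, 15.1, 8.2 and 12.3 CPM in the POA (log2 difference 1.01, SE 0.23, adjusted p = 0.00664). POA replicate 3 was closest to the MBH but below it.

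Over all 44 neuropeptide genes tested, 13 were higher in the MBH and 14 in the POA, beside 13.5% and 13.4% of all genes tested. Their median log2 difference was 0.13. Beside the peptides above, Grp, the gastrin-releasing peptide (-1.0 ± 0.17), Nppc (-1.28 ± 0.19), Nmu (-1.52 ± 0.45) and Pnoc, the nociceptin precursor (-1.12 ± 0.12), were higher in the POA. Of 51 peptide receptors tested, 12 were higher in the POA and 9 in the MBH, beside 13.4% and 13.5% of all genes tested. The POA had more of Prlhr (1.03, 1.53, 1.88, 1.3 and 1.75 CPM in the MBH, 7.98, 7.15, 6.29, 6.45 and 5.68 CPM in the POA, -2.2 ± 0.18), of the melanocortin receptor Mc4r (-1.3 ± 0.15), the galanin receptor Galr3 (-1.17 ± 0.23), the µ opioid receptor Oprm1 (-1.09 ± 0.2), the substance P receptor Tacr1 (-1.09 ± 0.17) and the PACAP receptor Adcyap1r1 (-0.49 ± 0.07). The MBH had more of Npsr1 (1.26 ± 0.22), the cholecystokinin receptor Cckar (1.07 ± 0.17), the orexin receptor Hcrtr2 (0.66 ± 0.16), the second central melanocortin receptor Mc3r (0.93 ± 0.27) and Mchr1, the receptor of melanin-concentrating hormone (0.39 ± 0.08).

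Receptor genes for amino acid and monoamine transmitters passed in shares near the 27% of all genes tested. Of 14 GABA-A subunit genes tested 5 passed, among them Gabra3 (-0.56 ± 0.08) and Gabrg1 (-0.46 ± 0.06), higher in the POA, and Gabre and Gabra5 (0.35 ± 0.1), higher in the MBH. Of 26 glutamate receptor genes 6 were higher in the MBH, among them Grm4 (1.04 ± 0.16), Grm8 (0.7 ± 0.13) and the obligatory NMDA subunit Grin1 (0.27 ± 0.07), and 3 in the POA, Grm3 (-1.12 ± 0.14), Grik3 (-0.62 ± 0.15) and Gria1 (-0.31 ± 0.11). Of 39 monoamine and acetylcholine receptor genes 8 were higher in the MBH and 2 in the POA. The MBH genes included Chrna3 (1.33 ± 0.2) and the serotonin receptor Htr2a (0.59 ± 0.13); the POA genes were Chrna2 (-1.82 ± 0.4) and the histamine receptor Hrh2 (-0.59 ± 0.19). The POA count was 4 with DESeq2 and without POA replicate 2, and 1 without POA replicate 3.

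**Figure D4:**
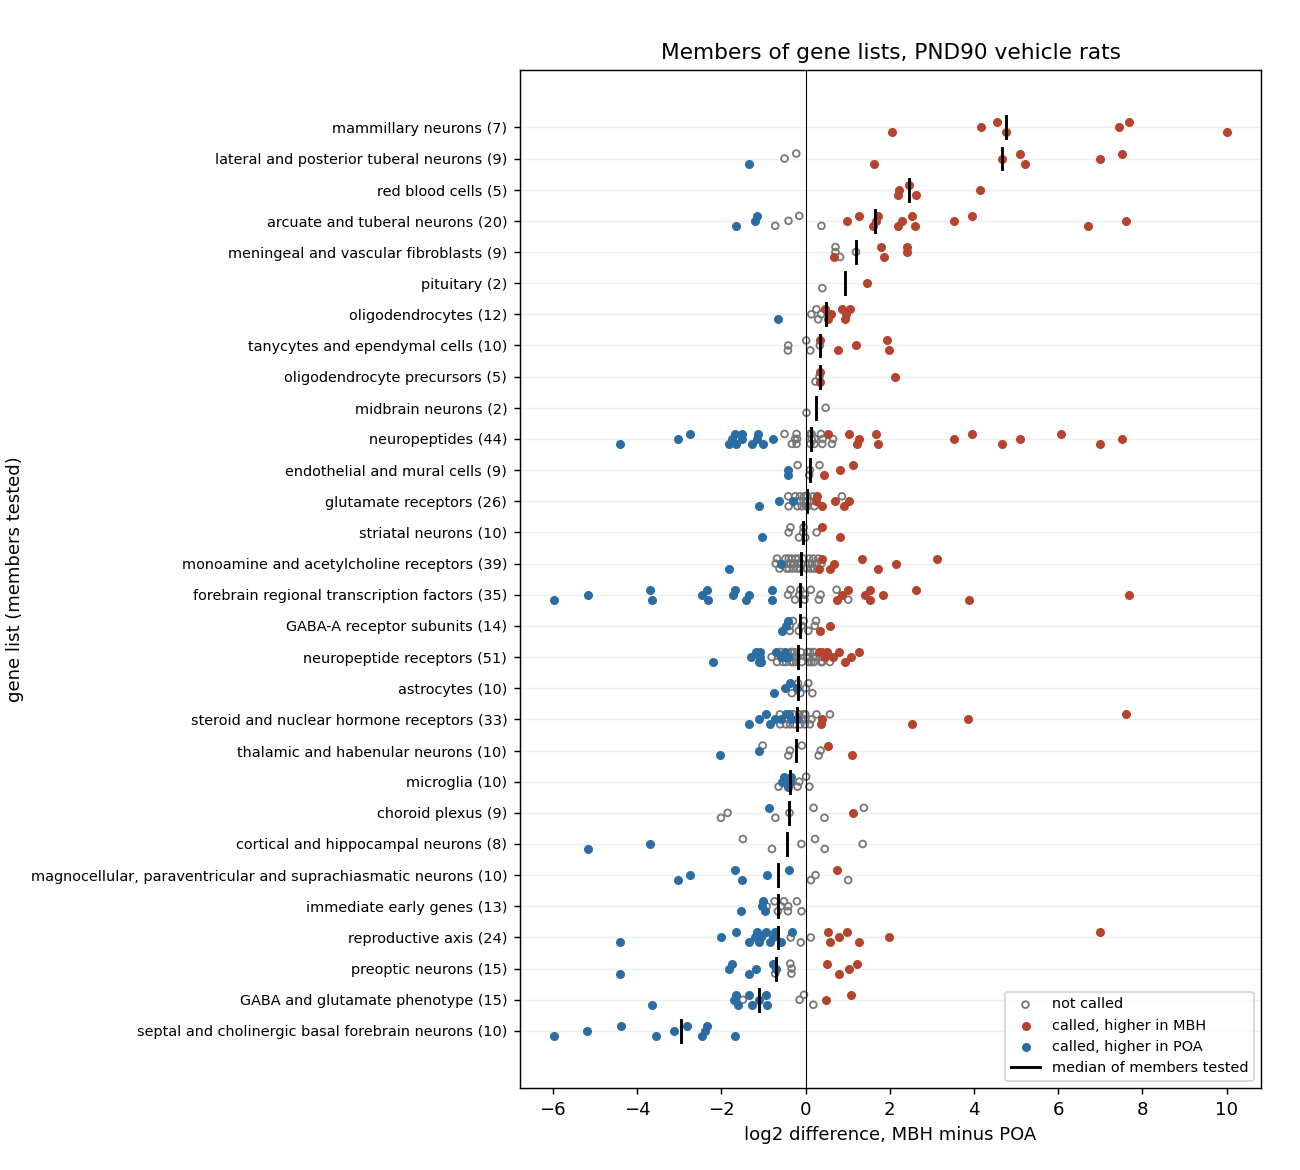
Log2 differences (MBH minus POA) of every tested member of 30 gene lists, ordered by the list median (black bar), with filled points for members that passed and open points for those that did not. Mammillary and lateral tuberal lists lie furthest to the right and the septal and cholinergic list furthest to the left, while lists of receptors and of most glial cells lie near 0.

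Most myelin genes were higher in the MBH, whereas astrocyte and microglial genes were higher in the POA or did not pass. Of all genes tested, 13.5% were higher in the MBH and 13.4% in the POA. Of 12 oligodendrocyte markers 7 were higher in the MBH, among them the myelin genes Mag (854, 629, 656, 627 and 829.8 CPM against 297, 314, 395, 417 and 276 CPM, 1.05 ± 0.13) and Cnp (0.97 ± 0.1), whereas Ermn was higher in the POA (-0.66 ± 0.13). Summed over the list, in which Mbp had the most reads, the MBH held 27819, 19702, 18270.4, 19751 and 23034 CPM and the POA 12931, 12410.0, 13971, 16648 and 15454 CPM, without overlap. Gpr17, a receptor of committed oligodendrocyte precursors, had 136, 115, 135, 106 and 122 CPM in the MBH and 24.2, 29.4, 27.8, 28 and 27.3 CPM in the POA (log2 difference 2.13, SE 0.09, adjusted p = 6.76e-09), and it was 1 of 3 precursor markers of 5 tested that were higher in the MBH, with Pdgfra (log2 difference 0.34, SE 0.07, adjusted p = 0.0032). Of 10 astrocyte markers 4 were higher in the POA, with S100b (-0.74 ± 0.12) and the glutamate transporters Slc1a3 (-0.37 ± 0.08) and Slc1a2 (-0.5 ± 0.13), and none in the MBH. Of 10 microglial markers 5 were higher in the POA, with the complement genes C1qa (-0.56 ± 0.14), C1qb (-0.37 ± 0.1) and C1qc (-0.5 ± 0.16), none was higher in the MBH, and every one of the 10 had overlapping ranges; the count of 5 ran from 0 to 7 over 22 alternatives. C3, the central complement component, differed by more than any of these, with 3.57, 2.64, 5.24, 5.14 and 6.57 CPM in the MBH and 34.7, 24.6, 36.5, 19.3 and 29.8 CPM in the POA (log2 difference -2.69, SE 0.23, adjusted p = 6.07e-06); the part of microglia in that value was not tested.

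Tanycytes are the radial glia that line the third ventricle above the median eminence. Of 10 tanycyte and ependymal markers tested, 5 were higher in the MBH and none in the POA, beside 13.5% and 13.4% of all genes tested. Among the 5 were Crym (1.93 ± 0.33), Gpr50, the deiodinase Dio2 (1.2 ± 0.33) and Vcan (0.35 ± 0.1). Vcan was also listed as an oligodendrocyte precursor marker, so its call was counted in both lists. Of 9 endothelial and mural markers 3 were higher in the MBH, Pdgfrb (1.14 ± 0.09), Rgs5 (0.44 ± 0.09) and Vwf (0.81 ± 0.14), and 2 in the POA, Flt1 (-0.42 ± 0.08) and Myh11 (-0.4 ± 0.14). Of 9 meningeal and vascular fibroblast markers 5 were higher in the MBH, among them Col3a1 (56, 77, 83.2, 76.5 and 66.6 CPM against 9.43, 2.32, 31.9, 20.1 and 2.79 CPM, log2 difference 2.42, SE 0.51, adjusted p = 0.00392) and Col1a1 (log2 difference 2.4, SE 0.55, adjusted p = 0.00638). The summed fibroblast list, in which Ptgds had the most reads, was 744, 677, 1341, 1319 and 975 CPM in the MBH and 321, 191, 1039, 592 and 228 CPM in the POA, so POA replicate 3 reached the MBH range. Without POA replicates 2 and 3, 8 of the fibroblast markers passed, all higher in the MBH, and without replicate 3 alone all 9 did, whereas 3 passed without both libraries of the rat of replicate 1 and none without MBH replicates 1, 4 and 5. Of 9 choroid plexus markers tested, Slc4a5 (1.13 ± 0.23) was higher in the MBH and Clic6 (-0.86 ± 0.2) in the POA, and Aqp1, which did not pass, had 0.483, 0.197, 20.9, 8.3 and 0.158 CPM in the POA, high in replicates 3 and 4.

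Red blood cell genes were higher in every MBH library than in any POA library, which held for 11.8% of all genes tested. All 5 tested passed, where 13.5% of all genes were called higher in the MBH: Hba-a1 had 508, 597, 318, 761 and 477 CPM in the MBH and 68.2, 136, 113, 159 and 87.4 CPM in the POA (log2 difference 2.21, SE 0.24, adjusted p = 3.34e-05), Hba-a2 had a log2 difference of 2.47, Hbb of 2.21 and Alas2 of 2.63. Slc4a1, the anion exchanger of the red cell membrane, had 6.51, 4.98, 3.14, 10.3 and 4.27 CPM in the MBH and 0.0483, 0.543, 0, 0.65 and 0.316 CPM in the POA (log2 difference 4.13, SE 0.52, adjusted p = 0.00011). Alox15, a lipoxygenase that reticulocytes also make, had 50.01, 43.6, 27.7, 85.5 and 36.3 CPM in the MBH and 1.02, 2.17, 0.771, 1.95 and 1.63 CPM in the POA (log2 difference 4.95, SE 0.33, adjusted p = 7.98e-07). Replicate 4 of the MBH was highest and replicate 3 lowest for Alox15, Slc4a1 and each of the other 4 red cell genes. The summed red cell list was 1159.7, 1381, 708, 1758 and 1050.0 CPM in the MBH and 149.8, 312, 234, 341 and 189 CPM in the POA, with Hba-a1 the most abundant gene; the part of blood in the Alox15 value was not tested. The hemoglobin genes are near-identical copies, so their separate values are uncertain.

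Pituitary transcripts were uneven among the libraries of both regions. Prl, the prolactin gene, had 0.387, 0.0493, 2.14, 0.20 and 26.2 CPM in the POA and no read in the MBH, and Gh1, the growth hormone gene, had 0.29, 0.0493, 0.831, 0.15 and 3.74 CPM in the POA and 0, 0.153, 0, 0.0591 and 0.0547 CPM in the MBH; both were high in POA replicate 5 and neither passed the filter. Cga, the subunit shared by pituitary glycoprotein hormones, had 4.73, 9.91, 0.0552, 4.02 and 21.3 CPM in the MBH and 0, 0.0987, 0, 0.10 and 0.158 CPM in the POA, with Tshb at 0.58, 2.49, 0, 0.473 and 4.27 CPM in the MBH, highest in replicate 5 for both. The gonadotropin subunit Fshb was at 0 in all 10 libraries. The summed pituitary list was 14.3, 26.9, 13.5, 16.8 and 36.6 CPM in the MBH and 7.59, 8.93, 7.83, 6.3 and 36.8 CPM in the POA, with Lhb the most abundant gene (4.68 to 7.47 CPM in the MBH and 3.38 to 6.71 CPM in the POA). Of its 2 members tested, Tbx19 was higher in the MBH (log2 difference 1.46, SE 0.17, adjusted p = 6.18e-05) and Lhb did not pass (log2 difference 0.4, SE 0.2, adjusted p = 0.148).

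Immediate early genes, which neurons induce within minutes of activity or handling, were higher in the POA in 4 of 13 tested and in the MBH in none, where 27% of all genes tested passed in either direction, a share near that of this list. Those that passed were Egr3 (-1.54 ± 0.5), Junb (-1.02 ± 0.29), Ier2 (-1.0 ± 0.35) and Arc (-0.96 ± 0.3), and Fos did not pass (log2 difference -0.41, SE 0.3, adjusted p = 0.33). Fos had 23.4, 20.8, 17.4, 11.5 and 18.7 CPM in the MBH and 15.4, 11.5, 23.1, 43.1 and 26.5 CPM in the POA, with replicate 4 of the POA highest, and the ranges of all 13 genes overlapped. The summed list was 194, 154, 154, 129 and 169 CPM in the MBH and 163, 127, 249, 349 and 252 CPM in the POA, with Jun its most abundant gene. With the rat block 1 gene passed, without POA replicates 2 and 3 it was 7, and without MBH replicate 2 or 4 or POA replicate 4 none did.

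The same comparison was made in vehicle rats at PND22 and PND42, with other animals, to ask whether the regional difference depended on age. At PND22 the library labelled POA replicate 4 had values like those of the MBH, with Lmx1a at 15.2 CPM, Lhx8 at 0.238 CPM and Pmch at 1400.2 CPM, against at most 0.857, at least 10.4 and at most 23.8 CPM in the other 4 POA libraries. PND22 values and tests are therefore given without it, and the count of genes that differed also with it. Depth differed between the regions at both younger ages, unlike at PND90. At PND22 the 5 POA libraries held 12601314 to 15521703 counted reads and the MBH libraries 18459642 to 22522907. At PND42 the ranges were 15592294 to 16979710 and 20543108 to 24235728. The part of depth in the counts of genes below was not tested. Of 14742 genes tested at PND22, 2360 (16%) differed between regions, and 1491 of 14557 (10.2%) with the library labelled POA replicate 4. At PND42, 437 of 14618 genes (2.99%) differed, or 239 with a block for the rat, in which 4 rats had both regions and 1 library of each region had no partner, and 834 with DESeq2. At PND42 MBH replicates 1 and 2 stood apart, with Prkcd at 333 and 297 CPM, against 10.4 to 111 CPM in the other 3, and Slc17a7 at 38.3 and 30.8 CPM, against 1.69 to 22.3 CPM. POA replicate 3 of PND42 was also high in its region, with Prkcd at 162 CPM, against 30.3 to 42.6 CPM in the other POA libraries. Its Slc17a7 was at 13.1 CPM, against 2.79 to 6.61 CPM. Without MBH replicates 1 and 2, a choice made after seeing the data, 287 genes differed at PND42, and without POA replicate 3 alone 391. Of all genes that passed at PND90, 62.1% of 3927 had the same sign at PND22 and 63.2% of 3916 at PND42. Of those with a log2 difference of at least 1 in size, 78.1% of 667 did at PND22 and 74% of 655 at PND42. Among genes that did not pass at PND90 the shares were 54.8% and 53.9%. Genes that passed at both PND90 and PND22 had the same sign in 730 cases and opposite signs in 211. For PND90 and PND42 these counts were 267 and 21.

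A test of the difference between ages, in a fit with a mean for each region and age, called 2423 of 15205 genes (15.9%) between PND90 and PND22 and 1353 of 15125 (8.95%) between PND90 and PND42, or 740 with the rat block and 1001 without MBH replicates 1 and 2 of PND42. The mammillary and tuberal genes Hdc, Hcrt and Agrp, the estrogen receptors Esr1 and Esr2 and the basal forebrain genes Lhx8 and Chat kept their sign at all 3 ages, and for none of them was the age difference past the threshold. Esr1, for example, had log2 differences of -0.77 (SE 0.13) at PND22 and -1.22 (SE 0.18) at PND42, beside -1.34 at PND90.

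**Figure D5:**
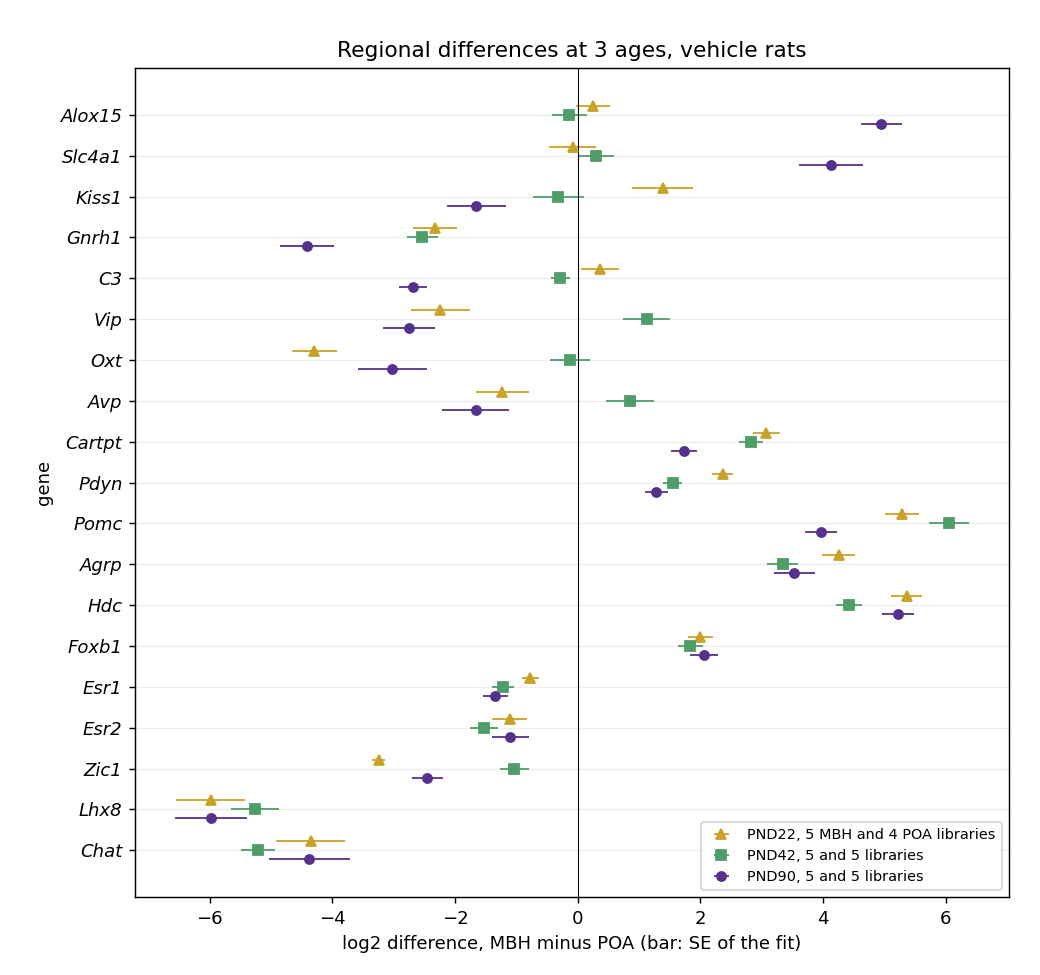
Log2 differences (MBH minus POA) of 19 genes at PND22 (5 MBH and 4 POA libraries), PND42 and PND90 (5 and 5), with bars for the SE of each fit. Alox15, Slc4a1 and C3 lie near 0 at the younger ages and far from it at PND90, Gnrh1 lies furthest left at PND90, and Vip, Oxt and Avp are near or right of 0 at PND42 only.

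Gnrh1 differed more strongly between the regions at PND90 than before. The POA mean was 5.16 ± 1.93 CPM at PND22 (SD, n = 4), 8.48 ± 1.22 CPM at PND42 and 15.9 ± 8.59 CPM at PND90 (SD, n = 5), while the MBH means were 1.07 ± 0.57, 1.44 ± 0.582 and 0.766 ± 0.35 CPM. The change in the log2 difference was -2.06, SE 0.63, adjusted p = 0.0309 against PND22 and -1.88, SE 0.54, adjusted p = 0.0335 against PND42. Kiss1 had values of 2.61, 2.74, 1.3, 1.25 and 1.91 CPM in the MBH and 1.89, 0.229, 0.527 and 0.322 CPM in the 4 POA libraries at PND22. That log2 difference of 1.39 (SE 0.5) did not pass (adjusted p = 0.0797). The change to PND90 was -3.02, SE 0.77, adjusted p = 0.0108, and it was not refitted without POA replicate 1 of PND90, which had 11 CPM. Against PND42 the change did not pass (-1.32, SE 0.69, adjusted p = 0.241). Changes against PND22 also passed for Tac3 (-0.81, SE 0.27, adjusted p = 0.046), Gal (-0.86, SE 0.28, adjusted p = 0.0443), Pgr (-0.67, SE 0.22, adjusted p = 0.0449) and Nts (-1.08, SE 0.34, adjusted p = 0.0375), all toward the POA. Age changes of single genes against PND22 were not refitted with DESeq2, with the rat block or with a further library left out. Of the arcuate peptides, Cartpt had a smaller regional difference at PND90 than at PND22 (-1.33, SE 0.33, adjusted p = 0.00922) and at PND42 (-1.09, SE 0.31, adjusted p = 0.029), with POA levels of 12.6, 11.1, 18.5, 11.2 and 13.5 CPM at PND42. Pdyn also had a smaller difference at PND90 than at PND22 (-1.06, SE 0.28, adjusted p = 0.013), and Pomc than at PND42 (-2.08, SE 0.49, adjusted p = 0.00953).

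Alox15, Slc4a1 and C3 had large regional differences at PND90, whereas none passed at the younger ages. Alox15 had 2.52, 4.24, 8.11, 6.6 and 4.87 CPM in the MBH and 4.55, 8.54, 5.91, 6.38 and 3.72 CPM in the POA at PND42, and means of 56.6 ± 20.4 CPM in the MBH (SD, n = 5) and 46.1 ± 18.6 CPM in the POA (SD, n = 4) at PND22. The log2 difference was 0.25 (SE 0.28) at PND22 and -0.13 (SE 0.28) at PND42, and the change to PND90 was 4.72, SE 0.49, adjusted p = 3.06e-06 against PND22 and 5.1, SE 0.46, adjusted p = 4.07e-07 against PND42. The red cell gene Hba-a1 had similar means in both regions at the younger ages: they were 540.0 ± 266 CPM in the MBH and 525 ± 191 CPM in the POA (n = 4) at PND22, 227 ± 34 and 227 ± 79.9 CPM at PND42, and 532 ± 163 and 113 ± 36.5 CPM at PND90. Hbb had 447 ± 215 CPM in the MBH and 279 ± 107 CPM in the POA at PND22, a log2 difference of 0.63 (SE 0.33) that did not pass (adjusted p = 0.22), and 243 ± 55.3 and 244 ± 82.9 CPM at PND42. Slc4a1 changed by 4.23, SE 0.71, adjusted p = 0.000405 against PND22 and by 3.85, SE 0.64, adjusted p = 0.000574 against PND42. C3 had 12.9, 11.3, 8.16, 14.1 and 11.8 CPM in the MBH and 14, 17.3, 16.2, 11.5 and 12.7 CPM in the POA at PND42, and its regional difference changed by -3.04, SE 0.41, adjusted p = 5.88e-05 against PND22 and -2.39, SE 0.29, adjusted p = 1.62e-05 against PND42.

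Vip, Oxt and Avp had no regional difference past the threshold at PND42. Vip had 41.2, 28.9, 16, 17.9 and 12.5 CPM in the MBH and 11.5, 21.1, 9.35, 4.96 and 6.88 CPM in the POA at PND42, so its higher mean was that of the MBH (-3.87, SE 0.62, adjusted p = 0.000385 for the change to PND90). Oxt had 122, 67.5, 152, 98 and 81.4 CPM in the MBH and 111, 40.5, 155, 86.7 and 178 CPM in the POA (-2.88, SE 0.7, adjusted p = 0.0122). The MBH levels at PND42 overlapped those of the POA in both genes. At PND22 the log2 difference of Oxt was -4.29 (SE 0.37), with no overlap, and that of Vip -2.24 (SE 0.49), with overlap. The change in Avp was -2.51, SE 0.75, adjusted p = 0.0386 between PND42 and PND90. Tbr1, Zic1 and Zic4 also had smaller regional differences at PND42. Zic1 had 31.4, 31.3, 15.1, 13.2 and 18.3 CPM in the MBH at PND42, against 8.13 to 14.7 CPM at PND90, and its change passed (-1.41, SE 0.37, adjusted p = 0.0192), as did those of Zic4 (-1.12, SE 0.26, adjusted p = 0.0089) and Tbr1 (-1.46, SE 0.4, adjusted p = 0.025). Zic1 and Vip were highest in MBH replicates 1 and 2 of PND42, the libraries with the highest Prkcd and Slc17a7, and the part of other tissue in these values was not tested. Without those libraries the changes of Vip (-3.26, SE 0.6, adjusted p = 0.00263), Oxt (-2.96, SE 0.76, adjusted p = 0.0245) and Zic4 (-0.88, SE 0.25, adjusted p = 0.0428) still passed, whereas those of Avp (-2.59, SE 0.81, adjusted p = 0.0595), Zic1 (-0.92, SE 0.33, adjusted p = 0.107) and Tbr1 (-1.45, SE 0.45, adjusted p = 0.0592) did not. The position of the dissection at each age cannot be told apart from age.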

How the data were processed

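Total RNA of hypothalamic tissue was made into stranded, poly(A)-selected libraries (TruSeq stranded mRNA) and read as pairs on a NovaSeq6000 by the authors. The labels name bcl2fastq 2.20. The authors aligned the reads with STAR to the Rnor_6.0 assembly in the nf-core rnaseq pipeline and counted reads per Ensembl gene with featureCounts; the strand setting and the handling of reads that map to several genes are not given in the sources used here, so overlapping, antisense and near-identical genes are uncertain. The deposited files hold raw counts, 1 table for each region, with 32883 genes, 396 of them without a symbol, and 0 columns of samples were left unmatched to a label.

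Genes were kept with filterByExpr (minimum count 10), scaled by TMM factors and tested with edgeR 4.0.16 in R 4.3.3 by the quasi-likelihood F test, MBH against POA, with Benjamini-Hochberg adjustment over all genes tested and a threshold of 0.05. SE is the absolute log2 difference divided by the square root of F. CPM is the count divided by the library total, before TMM scaling. Where 1 region had 1 to 3 reads in all, the ratio of summed counts is given with an exact 95% interval, which covers counting error only. The fit was tested on simulated data, and the outcome is not given here. Named genes were the 12 with the largest log2 difference in each direction among called genes with a mean log2 CPM of at least 1, ranges that did not overlap and a symbol that is not a placeholder, together with a fixed set of hypothalamic peptides, receptors and markers; members of 30 lists were named where their list is described. Some genes that these rules take are not reported here. The members and lists were chosen with earlier results of these data known.

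At PND90 and PND22 each rat number of the vehicle libraries stands on 1 MBH and 1 POA library, which were taken as the same rat; at PND42 this holds for 4 rats, and 1 rat of each region has no partner. At PND90 the deviations of the paired libraries from their region means correlated between -0.15 and 0.084 (median 0.0063), and 0 of 5 pairs exceeded 0.1. The main fit had no rat term, and a fit with the rat as a block was an alternative, as were DESeq2 1.42.0, DESeq2 size factors, no filter, 1 fit of the 30 vehicle libraries and leaving out each library or rat. Replicates are separate rats by their labels, and whether they came from separate litters is not given in the sources used here.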

Additional observations from a re-analysis of the deposited data

Results flagged for a closer look

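In 5 of 83 groups of 5 libraries that were screened on log2(CPM + 0.1), 1 library lay far from the other 4; chance alone gives about 1 in 20 groups. POA replicate 3 was the lowest library for Oxt (90.65 CPM), Avp (11.51 CPM) and Cyp19a1 (1.483 CPM), and POA replicate 2 was the highest for Pmch (140.6 CPM). In the MBH, replicate 1 was the lowest for Crh (1.606 CPM).

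In 18 named genes the regional difference at PND90 differed from that at PND22 or PND42 (edgeR quasi-likelihood test of the difference between ages, adjusted p under 0.05 over all genes tested). The values below are the log2 difference MBH minus POA at PND90 minus that at the other age. Against PND22, without the library labelled POA replicate 4, they were 4.72 for Alox15 and 4.23 for Slc4a1, and on the side of the POA -3.04 for C3, -3.02 for Kiss1, -2.06 for Gnrh1, -1.33 for Cartpt, -1.08 for Nts, -1.06 for Pdyn, -0.86 for Gal, -0.81 for Tac3 and -0.67 for Pgr. Against PND42 they were 5.10 for Alox15 and 3.85 for Slc4a1, and on the side of the POA -3.87 for Vip, -2.88 for Oxt, -2.51 for Avp, -2.39 for C3, -2.08 for Pomc, -1.88 for Gnrh1, -1.46 for Tbr1, -1.41 for Zic1, -1.12 for Zic4 and -1.09 for Cartpt. Without MBH replicates 1 and 2 of PND42 the changes of Avp (adjusted p = 0.0595), Zic1 (adjusted p = 0.107) and Tbr1 (adjusted p = 0.0592) missed the threshold. The changes of single genes were not refitted with DESeq2, with the rat block or with other libraries left out. Each age was measured in other rats, and age and any difference in dissection or sequencing between ages cannot be told apart.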

How the results depend on the processing

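At PND90 the count of 3963 genes stayed within 1.5 times in each alternative but 1: 3906 with DESeq2 size factors, 3811 without the filter, 4524 with DESeq2, 3335 with the rat as a replicate block, 4442 in 1 fit of 30 libraries, and 4268 without POA replicates 2 and 3, an alternative chosen after seeing the data. The exception, also chosen then, was the fit without MBH replicates 1, 4 and 5, which left 2 MBH libraries and 1225 genes, 774 higher in the MBH and 451 higher in the POA. Leaving out a library or a rat gave 2697 to 4283 genes, of which 1526 to 2253 were higher in the MBH and 1153 to 2030 higher in the POA; the POA count was 1156, 1216 and 1153 without the rats of replicates 1, 4 and 5. At PND22 the count of 1491 genes with the library labelled POA replicate 4 ran from 508 (without POA replicate 3) to 2360 (without the library labelled POA replicate 4), and it also moved by over 1.5 times without MBH replicate 1 (597), 3 (523) or 5 (634) and without POA replicate 1 (776), 2 (976) or 5 (747). The count of 2360 without that library ran from 1570 (without MBH replicate 3) to 2688 (without MBH replicate 2) when a further library was left out, and in the other settings from 1940 (rat block) to 2827 (DESeq2). At PND42 it ran from 276 (without POA replicate 1) to 451, was 834 with DESeq2 and 239 with the replicate block, and 287 without MBH replicates 1 and 2 of PND42. When 1 library was left out, the count of age differences ran from 1937 to 2789 against PND22 with the library labelled POA replicate 4. Without that library it ran from 1954 to 2925, and against PND42 from 1018 to 1683. With the replicate block the counts were 1929, 1705 and 740, and with DESeq2 2757, 2809 and 1805, in the same order. Without MBH replicates 1 and 2 of PND42 the count against PND42 was 1001. Of 46 named genes tested, 34 kept their direction and side of the threshold in each of up to 22 settings. Cyp19a1, Oxt, Pgr, Pmch, Tac3 and Th missed the threshold without MBH replicates 1, 4 and 5 and in no other setting (adjusted p from 0.0518 for Oxt to 0.0918 for Tac3), and Avp, Esr2, Gal and Kiss1 missed it there too. Avp was lost in 14 settings, Kiss1 in 5 (also without POA replicate 1 alone or both libraries of that rat, or MBH replicate 3 or 5), Esr2 in 4 and Gal in 3, while Sst (log2 difference -0.47) and Trh (-0.80) passed without the rat of replicate 3. Sst turned to 0.0026 without POA replicate 2 and to 0.033 without the rat of replicate 2. Of 60 counts of list members, by list and direction, 25 stayed within 1.5 times in all 22 settings, and 151 of 1320 values lay outside. The septal and cholinergic count in the POA ran from 7 to 10, the mammillary count in the MBH from 7 to 8 and the red cell count was 5 throughout, whereas the fibroblast count in the MBH ran from 0 to 9, the microglial and immediate early counts in the POA from 0 to 7, the midbrain count in the MBH from 0 to 4, and the cortical count in the MBH from 0 to 3. The pituitary count in the MBH ran from 1 to 3. The block changed no call of a named gene except Avp. The cause of these changes was not tested. Depth limits the genes with few reads, such as Barhl1 and Nr0b1, and 3 reads over the 10 libraries equal 0.0156 CPM.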
